A study of Mus musculus with 64 samples.

Results

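A set of 1137 genomic sites carried a SOX2 ChIP–seq peak in 3 of 3 naive mouse embryonic stem cell (ESC) libraries and in 0 of 9 libraries from 3 other cell states. They were chosen from 12 SOX2 peak lists. The 20000 peaks with the highest fold enrichment over input were kept from each list, peaks that shared at least 1 bp were merged across lists, and the merged sites numbered 125248. The naive-only sites made up 0.908% of them. Because SOX2 peak calls chose these sites, their SOX2 values are given as a description without a test. The tests are confined to 4 other proteins immunoprecipitated in separate libraries. The choice of sites still favours an excess in naive ESCs for any protein found with SOX2.

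SOX2 is an HMG-box transcription factor that maintains pluripotency, often alongside OCT4, and is needed again in the neural lineage and in the caudal epiblast that builds the trunk. Naive ESCs correspond to the pre-implantation epiblast and express factors such as ESRRB, NR5A2, KLF4, TFCP2L1 and PRDM14, which are lost as cells move to the post-implantation, primed state. WNT signalling stabilises β-catenin, a co-activator without a DNA-binding domain of its own, which reaches chromatin through the HMG-box factors LEF1, TCF7L1 and TCF7L2. TCF7L1 acts mainly as a repressor in ESCs, and relief of that repression favours the naive state.

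The libraries came from HM1 TetON cells, a mouse ESC line of strain 129 that constitutively expresses the rtTA transactivator, and every immunoprecipitation had 3 biological replicates per state. Naive ESCs were wild-type cells in 2i medium, which holds the GSK3 inhibitor CHIR99021 and the MEK inhibitor PD0325901. Caudal epiblast-like cells (CEpiLCs) were wild-type cells given FGF with LGK974, which blocks the secretion of WNT ligands, and then also CHIR99021. SOX2-ON and SOX2-OFF cells were Sox2-/- SOX2-TetON cells, in which doxycycline drives a Sox2 transgene placed in the Hprt locus. They went through the same FGF, LGK974 and CHIR99021 medium with doxycycline kept (ON) or withdrawn (OFF). The labels give 72 h as the time point of every library, and CHIR99021 was present at harvest in all 4 states. Its dose and duration were not matched. Per the study's methods it was in 2i from the start at a lower concentration, and in the other states only for the last part of the culture. The TetON line was made by picking edited clones, and the number of clones used is not given in the sources used here. No TetON cells in 2i were analysed, so medium, cell state and genotype cannot be told apart in a comparison of naive ESCs with the other 3 states. Lists held 1628 to 991719 peaks, and the read depth behind them is unknown. Whether immunoprecipitations with the same replicate number shared chromatin is not given in the sources used here. SOX2 protein and marker expression cannot be read from peak lists, and the identity of the cells was not checked here other than by the genes near their peaks.

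The sequences at some of the strongest naive-only sites are shown first. Each of the following is 121 bases of the mm10 reference (a C57BL/6J genome) centred on the SOX2 summit. Capitals mark, on either strand, a SOX sequence (CATTGT or CTTTGT), an ESRRB/NR5A2 sequence (AAGGTCA), a KLF sequence (GGGTGTG or GGGCGTG) or a ZIC sequence (CAGCAGG). The first 4 are the sites with the highest SOX2 enrichment of those without a SOX2 peak of any strength in the other 9 libraries. The last has the naive pluripotency gene Nr5a2 as its nearest gene, with the start 458086 bp away.
Site in an intron of Gm11639, chr11:104944849-104944969, plus strand: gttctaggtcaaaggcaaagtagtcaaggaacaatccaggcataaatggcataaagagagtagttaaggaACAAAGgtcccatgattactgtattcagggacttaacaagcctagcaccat
Site in an intron of Ksr1, chr11:79138819-79138939, plus strand: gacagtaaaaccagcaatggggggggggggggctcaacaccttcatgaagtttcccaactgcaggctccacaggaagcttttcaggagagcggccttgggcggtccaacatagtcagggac
Site in an intron of Brpf3, chr17:28820334-28820454, plus strand: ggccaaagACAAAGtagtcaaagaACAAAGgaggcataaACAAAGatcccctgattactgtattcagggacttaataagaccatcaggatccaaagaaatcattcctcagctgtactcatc
Site upstream of Sgsm1, chr5:113330334-113330454, plus strand: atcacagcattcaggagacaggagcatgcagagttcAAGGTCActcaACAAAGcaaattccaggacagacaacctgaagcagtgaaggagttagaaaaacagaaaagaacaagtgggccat
Site upstream of Nr5a2, chr1:137418474-137418594, plus strand: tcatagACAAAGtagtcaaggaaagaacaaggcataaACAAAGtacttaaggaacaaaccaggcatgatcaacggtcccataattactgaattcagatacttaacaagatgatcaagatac
The Gm11639, Brpf3 and Nr5a2 sites, on chromosomes 11, 17 and 1, held SOX sequences in similar surroundings, with more than 1 match in the Brpf3 and Nr5a2 windows. The Ksr1 window held no marked match in its 121 bases, but SOX and KLF sequences lay within the 201 bp used for the shares below. The Sgsm1 site paired a SOX with an ESRRB/NR5A2 sequence. A second set lies by genes of the naive pluripotency network. These windows were alike to no other naive-only site and had 1 marked match each.
Site upstream of Zfp42, chr8:43320731-43320851, plus strand: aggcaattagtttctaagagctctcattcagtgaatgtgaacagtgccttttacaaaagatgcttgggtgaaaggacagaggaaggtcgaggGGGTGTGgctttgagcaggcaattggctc
Site in an intron of Tet2, chr3:133524800-133524920, plus strand: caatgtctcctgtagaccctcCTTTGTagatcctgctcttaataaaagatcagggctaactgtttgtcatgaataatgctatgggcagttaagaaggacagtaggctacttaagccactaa
Site in an intron of Tfcp2l1, chr1:118645898-118646018, plus strand: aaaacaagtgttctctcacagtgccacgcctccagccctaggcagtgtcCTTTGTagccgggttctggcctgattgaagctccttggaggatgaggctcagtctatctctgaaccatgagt
Site downstream of the Dppa5a start, chr9:78364890-78365010, plus strand: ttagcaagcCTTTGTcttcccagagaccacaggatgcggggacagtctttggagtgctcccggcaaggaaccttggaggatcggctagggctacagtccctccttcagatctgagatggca
The last set comes from stretches of DNA present in many copies, in the orientation of the copy with the most relatives. Group 1 was led by ESRRB/NR5A2 and ZIC sequences.
Group 1, centre, chr13:82628829-82628949, plus strand: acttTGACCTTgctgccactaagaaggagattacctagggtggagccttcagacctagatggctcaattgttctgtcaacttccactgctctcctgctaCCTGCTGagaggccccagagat
Group 1, site far upstream of Slitrk6, chr14:111116746-111116866, plus strand: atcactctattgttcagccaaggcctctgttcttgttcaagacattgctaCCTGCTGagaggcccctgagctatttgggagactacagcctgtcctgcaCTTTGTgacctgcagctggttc
Group 1, site far upstream of Mtpn, chr6:35871477-35871597, plus strand: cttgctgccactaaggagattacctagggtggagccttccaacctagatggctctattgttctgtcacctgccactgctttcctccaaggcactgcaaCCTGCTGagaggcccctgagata
Group 3 had a SOX sequence in most copies.
Group 3, centre, chr4:15243574-15243694, plus strand: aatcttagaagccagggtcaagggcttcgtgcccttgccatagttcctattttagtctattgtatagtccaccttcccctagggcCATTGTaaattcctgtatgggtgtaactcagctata
Group 3, site upstream of Rnf7, chr9:96487703-96487823, minus strand: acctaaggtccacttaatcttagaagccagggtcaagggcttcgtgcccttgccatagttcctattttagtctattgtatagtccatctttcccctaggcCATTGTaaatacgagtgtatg

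SOX2 enrichment at the naive-only sites was moderate within the naive lists. The median fold over input was 13.7, 11.4 and 11.2 in naive ESC replicates 1, 2 and 3, with ranges of 9.89 to 47.5, 6.36 to 63.8 and 6.03 to 64.1. The other 4727 sites found in 3 of 3 naive lists had medians of 16.1, 14.5 and 13.8, and the 815 sites found in all 12 libraries had medians of 20.2, 20.3 and 18.1. Naive-only sites were therefore weaker on average than the SOX2 sites that naive ESCs shared with other states, in each of the 3 replicates. Their median rank among the 20000 peaks was 5600, 5383 and 5081, well inside the limit. The fold of the last peak kept was 9.89, 6.34 and 6.02 in the naive lists and 4.33 to 7.24 in the other 9, and the first peak left out had the same fold to 3 digits. The limits of the rule moved the count: 571 sites had 3 of 3 naive peaks and 1 peak elsewhere, and 2665 had 2 of 3 naive peaks and none elsewhere.

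Absence from the 20000 strongest peaks did not mean absence of SOX2. In the full deposited lists, a SOX2 peak overlapped 19.3%, 23.5% and 36.6% of the naive-only sites in SOX2-ON replicates 1 to 3 (mean 26.4% ± 9.03, SD, n = 3). The shares were 2.11%, 24.4% and 18.7% in SOX2-OFF (15.1% ± 11.6, SD, n = 3) and 4.13%, 14.9% and 5.45% in CEpiLCs (8.15% ± 5.85, SD, n = 3). These peaks were weak, with median folds of 3.87 to 4.99 across the 9 libraries. The 3 shortest lists, CEpiLC replicates 1 and 3 with 29298 and 39683 peaks and SOX2-OFF replicate 1 with 56263, gave the 3 lowest shares, though not in order of length. CEpiLC replicate 2, with 104085 peaks, gave 14.9%, against 23.5% in SOX2-ON replicate 2 with a list of similar length. SOX2-ON replicates 1 and 2, with 93312 and 105448 peaks, gave shares close to those of SOX2-OFF replicates 3 and 2, which had 224107 and 375980 peaks. The sequencing depth behind the lists is unknown, and its part in these shares was not tested. A peak was present in 3 of 3 full SOX2-ON lists at 60 sites, against 6 sites for CEpiLCs and 3 for SOX2-OFF. At 320 of the 1137 sites no SOX2 peak of any strength was listed in the other 9 libraries.

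**Figure D1:**
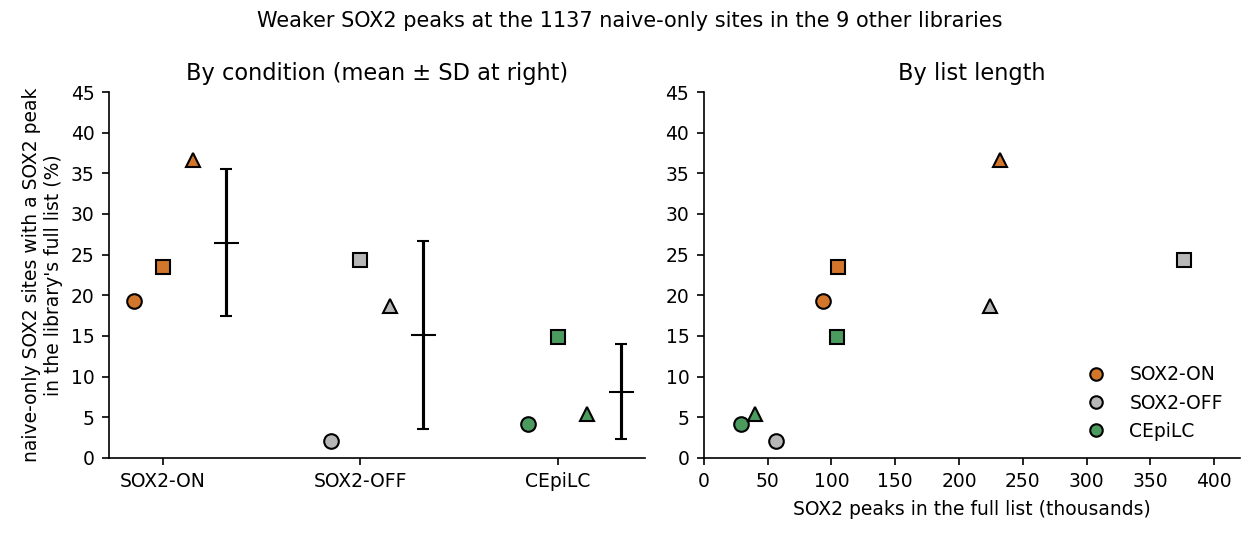
Share of the 1137 naive-only sites (per cent) that overlapped a SOX2 peak in the full list of each of the 9 other libraries, by condition with mean ± SD (left) and against the number of peaks in that list (right). Shares ran from 2.11% to 36.6%, the 3 SOX2-ON points lay between 19.3% and 36.6%, and the 3 shortest lists gave the 3 lowest shares.

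β-catenin is the co-activator of the WNT pathway. In lists of equal length it had peaks at 25.2% of these sites in naive ESCs and at under 1% in the other states. To compare libraries with lists of very different length, all 12 lists of each mediator were cut to the length of the shortest by their deposited −log10 p-value, which left 3423 β-catenin peaks per library. A β-catenin peak overlapped 24.6%, 24.5% and 26.3% of the naive-only sites in naive ESCs (25.2% ± 0.991, SD, n = 3). The shares were 0.0880%, 0.616% and 0.528% in SOX2-ON, 0.264%, 0.264% and 0.352% in SOX2-OFF, and 0%, 0% and 0.264% in CEpiLCs. The lowest naive value was far above the highest of the other 9 libraries. The difference of 24.9 percentage points had an adjusted p = 0.00606 in an exact permutation test of 3 against 9 libraries, two-sided, with Benjamini-Hochberg adjustment over the 4 mediators (raw p = 0.00455, the smallest that 220 assignments allow). The sites were chosen for SOX2 in naive ESCs and not in the other 9 libraries. For any protein found with SOX2, that choice favours this direction in every test of naive ESCs against the other states. At all other SOX2 sites the same lists gave 2.07% to 2.72% in every library. Without replicate 2 of every condition the difference was 51.02 percentage points, and without replicate 1 it was 15.7, with sites and list lengths set anew each time. SOX2-OFF replicate 2, with 3423 β-catenin peaks, had set the length. Sites found only in CEpiLCs had a β-catenin peak at 17.97%, 12.2% and 9.70% in CEpiLCs and at no more than 0.795% in naive ESCs, and sites found only in SOX2-ON had one at 13.2%, 11.2% and 7.91% in SOX2-ON and at no more than 0.293% in naive ESCs.

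TCF7L1, the repressor of the TCF family, showed the same pattern in 1628 peaks per library. Its peaks covered 9.85%, 10.99% and 12.4% of the naive-only sites in naive ESCs (11.1% ± 1.28, SD, n = 3), against 0%, 0.176% and 0.264% in SOX2-ON, 0%, 0% and 0.0880% in SOX2-OFF and 0% in all 3 CEpiLC libraries. The groups did not overlap, and the difference was 11.02 percentage points (exact permutation test, adjusted p = 0.00606). CEpiLC replicate 1 had only 1628 TCF7L1 peaks of median width 52 bp and set the length of the other lists. Without replicate 1 of every condition the difference was 55.2 percentage points, and without that CEpiLC library alone, an alternative chosen after seeing the data, it was 67.6.

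TCF7L2 and LEF1, which also bind β-catenin, covered fewer of the sites and varied more between naive replicates. TCF7L2 peaks, 4134 per library, lay at 2.64%, 9.41% and 5.19% of the sites in naive ESCs (5.75% ± 3.42, SD, n = 3). They lay at 0.176%, 0.264% and 0.352% in SOX2-ON, 0.352%, 0.264% and 0.264% in SOX2-OFF, and 0.0880%, 0.176% and 0.264% in CEpiLCs. The difference of 5.50 percentage points again separated all naive from all other libraries (exact permutation test, adjusted p = 0.00606), and it was 3.27 percentage points without replicate 2.

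LEF1 peaks, 4443 per library, lay at 0.440%, 22.4% and 4.22% of the sites in naive ESCs (9.03% ± 11.8, SD, n = 3). They lay at 0.440%, 0.352% and 0.967% in SOX2-ON, 0.0880%, 0% and 0.264% in SOX2-OFF, and 0.176%, 0% and 0.176% in CEpiLCs. Naive replicate 1 overlapped the other states, and its peaks had a median width of 55 bp and covered only 0.210% of the other SOX2 sites. The mean difference was 8.76 percentage points (exact permutation test, adjusted p = 0.0136). It fell to 1.88 percentage points with an adjusted p = 0.143 in the exact permutation test without replicate 2, and to an adjusted p = 0.179 without replicate 3. The size of the LEF1 difference therefore rested on naive replicate 2.

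**Figure D2:**
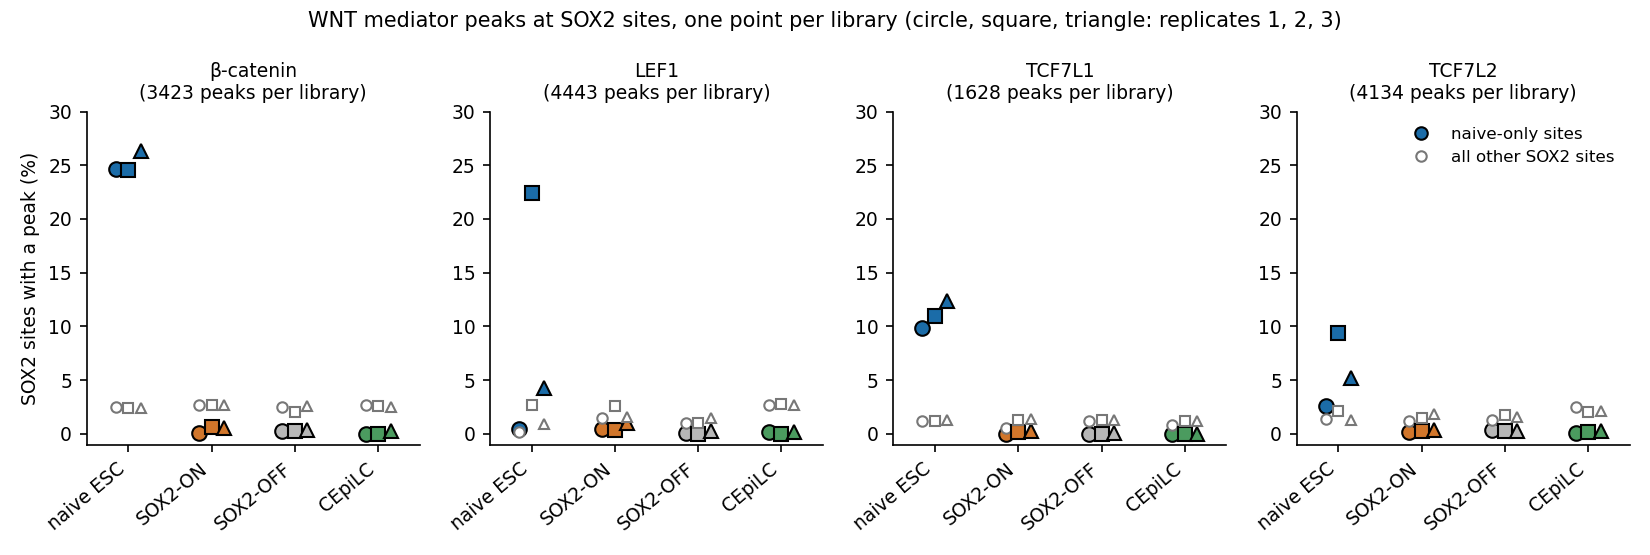
Share of SOX2 sites (per cent) with a peak of each WNT mediator in lists cut to the same length, 1 point per library, for the 1137 naive-only sites (filled) and all other SOX2 sites (open). Naive ESC points at naive-only sites reached 24.5% to 26.3% for β-catenin and 9.85% to 12.4% for TCF7L1, 0.440% to 22.4% for LEF1 and 2.64% to 9.41% for TCF7L2, while no other library exceeded 0.967%.

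Setting each library against its own other SOX2 sites gave the same order. The log2 odds ratio of a peak at naive-only sites relative to all other SOX2 sites was 3.76 ± 0.0822 for β-catenin, 3.33 ± 0.164 for TCF7L1, 2.29 ± 1.1 for LEF1 and 1.77 ± 0.713 for TCF7L2 in naive ESCs (SD, n = 3 each). It was below 0 in all 9 other libraries of every mediator. Naive ESCs exceeded the other states by 7.34, 7.24, 5.41 and 4.42 log2 units in that order, each with an adjusted p = 0.00455 in the exact permutation test, and here the LEF1 libraries did not overlap. Of 16 comparisons between pairs of conditions, 12 had groups that did not overlap. With 3 libraries against 3 the exact permutation test cannot go below p = 0.1, and those 12 pairs had an adjusted p = 0.133. SOX2-ON and SOX2-OFF differed by 0.117 percentage points for β-catenin and for TCF7L1, and by −0.0293 for TCF7L2, with overlapping groups. For LEF1 they differed by 0.469 percentage points without overlap.

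The high- and low-SOX2 states of the wild-type and TetON lines were then compared as pairs. The β-catenin share was 25.1 percentage points higher in naive ESCs than in CEpiLCs and 0.117 points higher in SOX2-ON than in SOX2-OFF. These differences differed from each other by 24.9 points (exact permutation of line labels within SOX2 level, 400 assignments, adjusted p = 0.03). In the same exact test the value was 5.60 points for TCF7L2 (adjusted p = 0.03), 10.96 for TCF7L1 (adjusted p = 0.0667) and 8.44 for LEF1 (adjusted p = 0.26). The order of naive ESC and SOX2-ON libraries alone cannot bring the raw p of this exact test below 0.1. For β-catenin and TCF7L2 it went lower only through the order of CEpiLC and SOX2-OFF libraries. Each of those libraries had such peaks at no more than 4 sites. At the 320 sites absent from the other full SOX2 lists the exact test did not pass the threshold. There the β-catenin value was 24.2 points, with a raw p = 0.1 and an adjusted p = 0.133 in the exact test. The TCF7L2 value was 5.52 points with an adjusted p = 0.1 in the exact test. With a replicate block the adjusted p was 0.125 for both in the exact test. The sites were chosen for SOX2 in naive ESCs and no strong SOX2 peak in SOX2-ON, SOX2-OFF or CEpiLCs. For any protein found with SOX2, that choice favours such a difference and a small one between SOX2-ON and SOX2-OFF. Naive ESCs differ from SOX2-ON in medium and genotype as well as in state.

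At the level of single sites, 172 of the 1137 naive-only sites (15.1%) had a β-catenin peak in 3 of 3 naive and 0 of 9 other lists of equal length. Over all 125248 SOX2 sites the share was 0.553%, and over the other 4727 sites found in 3 of 3 naive SOX2 lists it was 5.94%. For TCF7L1 the same pattern held at 79 naive-only sites (6.95%), against 0.318% of all sites and 3.81% of the other sites of the 3 naive lists. TCF7L2 met it at 11 sites (0.967%, against 0.0511% of all sites) and LEF1 at 1 site (0.0880%, against 0.0016%). β-catenin and TCF7L1 both met it at 71 sites, β-catenin alone of the pair at 101 and TCF7L1 alone at 8. Only 20 naive-only sites had a β-catenin peak in any of the 9 other lists of equal length. In the full lists of single other libraries the number ran from 3 sites (SOX2-OFF replicate 2) to 395 (SOX2-ON replicate 3). These were 0.264% and 34.7% of the naive-only sites, against 2.07% and 25.5% of all other SOX2 sites.

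When the other states were left aside and only presence in 3 of 3 naive lists of equal length was asked for, the naive-only sites held fewer mediator peaks than other naive SOX2 sites. β-catenin was present at 186 of them (16.4%, against 1.74% of all SOX2 sites and 26.7% of the other 4727 sites of the 3 naive SOX2 lists). TCF7L1 was present at 84 (7.39%, against 0.957% and 15.4%), TCF7L2 at 11 (0.967%, against 0.677% and 4.99%) and LEF1 at 1 (0.0880%, against 0.0415% and 0.550%).

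Full-length lists showed that most naive-only sites carried both proteins in naive ESCs. TCF7L1 had a peak in 3 of 3 full naive lists at 912 sites (80.2%) and β-catenin at 813 (71.5%), with both at 768 and neither at 180. These shares were close to those at the other sites of the 3 naive SOX2 lists, 79.1% for TCF7L1 and 75.2% for β-catenin. LEF1 and TCF7L2 reached 3 of 3 full lists at only 47 (4.13%) and 58 (5.10%) sites, against 7.79% and 14.3% of the other naive sites. The peaks sat close together. In the 3 naive libraries the median distance from the mediator summit to the SOX2 summit was 40, 53 and 44 bp for β-catenin and 49, 38 and 38 bp for TCF7L1. Occupancy followed SOX2 strength among the naive-only sites. The sites were split by median SOX2 fold into 4 parts of 284 or 285. From the lowest part to the highest, the share with β-catenin in 3 of 3 full naive lists was 50.2%, 70.1%, 73.9% and 91.9%, and for TCF7L1 it was 62.1%, 75.7%, 85.2% and 97.9%. The median SOX2 folds of those parts were 8.61, 10.9, 13.3 and 18.3. Full lists of the other states, which differed widely in length, were not empty at the naive-only sites. β-catenin peaks overlapped 27.6%, 9.94% and 34.7% of them in SOX2-ON, against 92.9%, 77.1% and 87.4% in naive ESCs. The SOX2-OFF shares were 21.5%, 0.264% and 5.72%, and the CEpiLC shares 1.85%, 1.23% and 0.704%. Over the 9 other libraries TCF7L1 ran from 0% to 38.8%, LEF1 from 0.176% to 46.0% and TCF7L2 from 0.0880% to 18.8%. At all other SOX2 sites the same lists ran from 0.847% to 25.4%, 1.88% to 29.7% and 1.75% to 19.6% in that order.

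Of the 6 sequences plotted, that of ESRRB and NR5A2 had the largest ratio between naive-only and all other SOX2 sites. These are orphan nuclear receptors of the naive network that bind the same core. AAGGTCA was found on either strand within 100 bp of the summit at 228 sites (20.1%). It was found at 4.77% of all other SOX2 sites, 3.28% of SOX2-ON-only sites, 2.70% of CEpiLC-only sites, 5.89% of sites kept in all 12 libraries and 5.70% of the 386 sites found in all naive ESC and all SOX2-ON libraries but no others. Among sites found in 3 of 3 naive lists it was 8.06% at the 4727 sites also found elsewhere, and 15.2% at the 571 of these found in only 1 other library. In windows 5000 bp away from the naive-only summits the share was 3.96%. These are shares of windows of 201 bp with exact letters and are given without a test. A match does not show that the factor was bound.

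The SOX sequence itself was present at 644 sites (56.6%), a larger share than at all other SOX2 sites (41.3%) and a smaller share than at the other sites of the 3 naive lists (64.8%), SOX2-ON-only sites (75.6%) or sites shared by naive ESC and SOX2-ON (80.1%). Repeated SOX sequences were less common too: 19.1% of the naive-only windows held at least 2 matches, against 40.6% of the SOX2-ON-only windows. The ESRRB/NR5A2 sequence was found at 15.7% of the naive-only sites with a SOX sequence and at 25.8% of those without. Among all other SOX2 sites the corresponding shares were 5.01% and 4.60%. Group 1 of alike windows adds to the contrast at naive-only sites. Its 70 sites held the ESRRB/NR5A2 sequence at 44 and the SOX sequence at only 7. The contrast without that group was not computed. At 32.2% of the naive-only sites neither was found.

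Other factors of the naive network had smaller shares. KLF sequences, bound by KLF2, KLF4 and KLF5, were found at 13.0% of the naive-only sites, 6.88% of all other sites, 2.64% of SOX2-ON-only sites and 12.2% of CEpiLC-only sites. The ZIC sequence was found at 17.7%, 9.72%, 6.62% and 13.99% in that order, and at 18.2% of the other sites of the 3 naive lists, so ZIC did not set naive-only sites apart from other naive sites. The sequence of TCF and LEF factors (CTTTGAT or CTTTGAA) was found at 13.98% of the naive-only sites, against 11.5% of all other sites and 18.5% of sites kept in all 12 libraries. The OCT sequence ATGCAAA was found at 7.83%, against 6.04% and 16.3%. The composite in which OCT4 and SOX2 bind side by side (CATTGTNATGC or CTTTGTNATGC, which overlaps the SOX sequence) was present at only 14 sites (1.23%), against 3.804% of sites kept in all 12 libraries and 6.99% of the naive ESC and SOX2-ON sites. The TFCP2L1 sequence was found at 4.93% of the naive-only and 4.28% of all other sites, and the STAT sequence TTCCNGGAA at 0.264% and 0.611%.

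**Figure D3:**
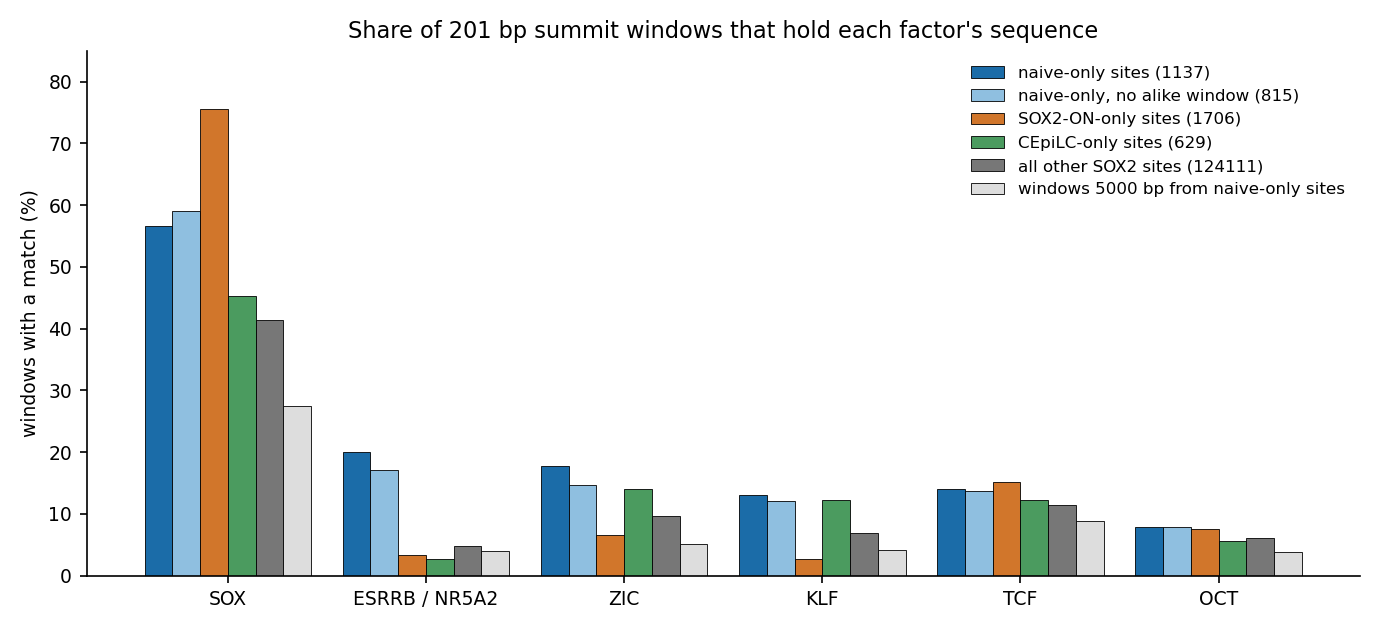
Share of 201 bp windows around the SOX2 summit (per cent) that hold the exact sequence of each factor on either strand, for naive-only sites, other classes of SOX2 site and windows 5000 bp from the naive-only summits. The ESRRB/NR5A2 bar is 20.1% at naive-only sites and 17.1% at those alike to no other, against at most 4.77% in the other classes drawn, while the SOX bar is highest, 75.6%, at SOX2-ON-only sites.

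The positions of the matches differed between factors. SOX matches at the naive-only sites were densest at the summit, with 13.2 per 100 sites in the central 20 bp, a mean of 10.1 per 20 bp within 50 bp and 3.36 beyond 190 bp. ZIC matches also peaked at the summit, at 3.17. ESRRB/NR5A2 matches formed a plateau, with a mean of 2.06 per 20 bp within 50 bp of the summit, 2.20 between 51 and 110 bp and 0.484 beyond 190 bp. At all other SOX2 sites the ESRRB/NR5A2 density was 0.513, 0.501 and 0.380 over the same distances.

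**Figure D4:**
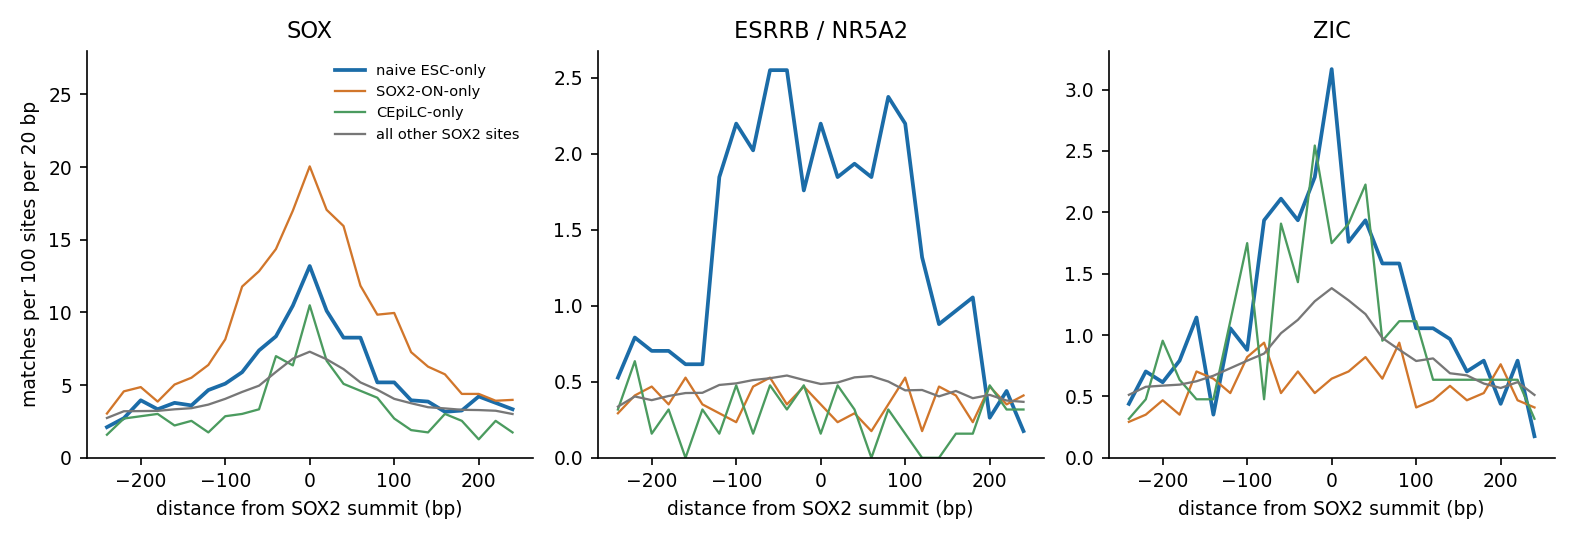
Matches per 100 sites in bins of 20 bp against the distance from the SOX2 summit in bp, for SOX, ESRRB/NR5A2 and ZIC sequences, with 1 line per class of site and separate vertical scales. In naive-only sites SOX matches peak at 13.2 at the summit, and ESRRB/NR5A2 matches stay near 2 out to about 110 bp on each side before they fall to 0.484 beyond 190 bp.

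Many of the naive-only sites were copies of one another. Of the 1137 windows, 322 (28.3%) shared at least 8 distinct stretches of 12 bases with the window of another naive-only site, a measure chosen after the sequences had been seen. The share was 5.98% among the 1706 SOX2-ON-only sites, 6.995% among the 629 CEpiLC-only sites, 18.3% among the 815 sites kept in all 12 libraries and 23.0% among the other 4727 sites of the 3 naive lists. This share can only grow as a class gets larger, and the SOX2-ON-only class was larger than the naive-only class. Soft-masked repeat bases made up 62.3% of the alike windows and 14.5% of the other 815 naive-only windows. How reads that match several places were placed is not given in the sources used here. A peak in an alike window therefore cannot be told apart from signal of another that shares its sequence.

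Of the 322 alike windows, 305 formed 45 groups and 17 were alike only to windows already placed in a group. The largest groups were of 70, 38, 35, 11 and 10 sites. Group 1, shown above by the copy with the most relatives, was spread over 18 chromosomes. Its 70 windows held the ZIC sequence at 57 sites (81.4%) and the ESRRB/NR5A2 sequence at 44 (62.9%), but the SOX sequence at only 7 (10.0%). Among all SOX2 sites, 607 were alike to the centre of group 1. Of these, 518 had a naive ESC peak, 180 a SOX2-ON peak, 234 a CEpiLC peak and 259 a SOX2-OFF peak in at least 1 list, so copies of this sequence were not confined to naive ESCs.

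Group 3 was narrower in its occupancy. Of 275 SOX2 sites alike to its centre, 249 had a naive ESC peak, 50 a SOX2-ON peak, 18 a CEpiLC peak and 21 a SOX2-OFF peak. Its 35 naive-only sites held the SOX sequence in 31 cases (88.6%), consisted of 95.2% repeat bases, and all 35 had both a β-catenin and a TCF7L1 peak in 3 of 3 full naive lists. Group 2, with 38 sites, held SOX at 24 and KLF at 15. Group 4, with 11 sites, held the OCT–SOX composite at 7 of its sites, and 14 naive-only sites held it in all.

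Group 5 had only 10 sites but a median SOX2 fold of 25.1, against 12.1 to 14.2 in the other 5 of the 6 largest groups. All 10 held a SOX sequence, only 18.3% of their bases were masked as repeats, and all 10 had β-catenin and TCF7L1 in 3 of 3 full naive lists. The Gm11639 and Brpf3 sites printed above belong to it, as does a site upstream of Pccb. The Nr5a2 site was alike to 5 other naive-only sites.

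**Figure D5:**
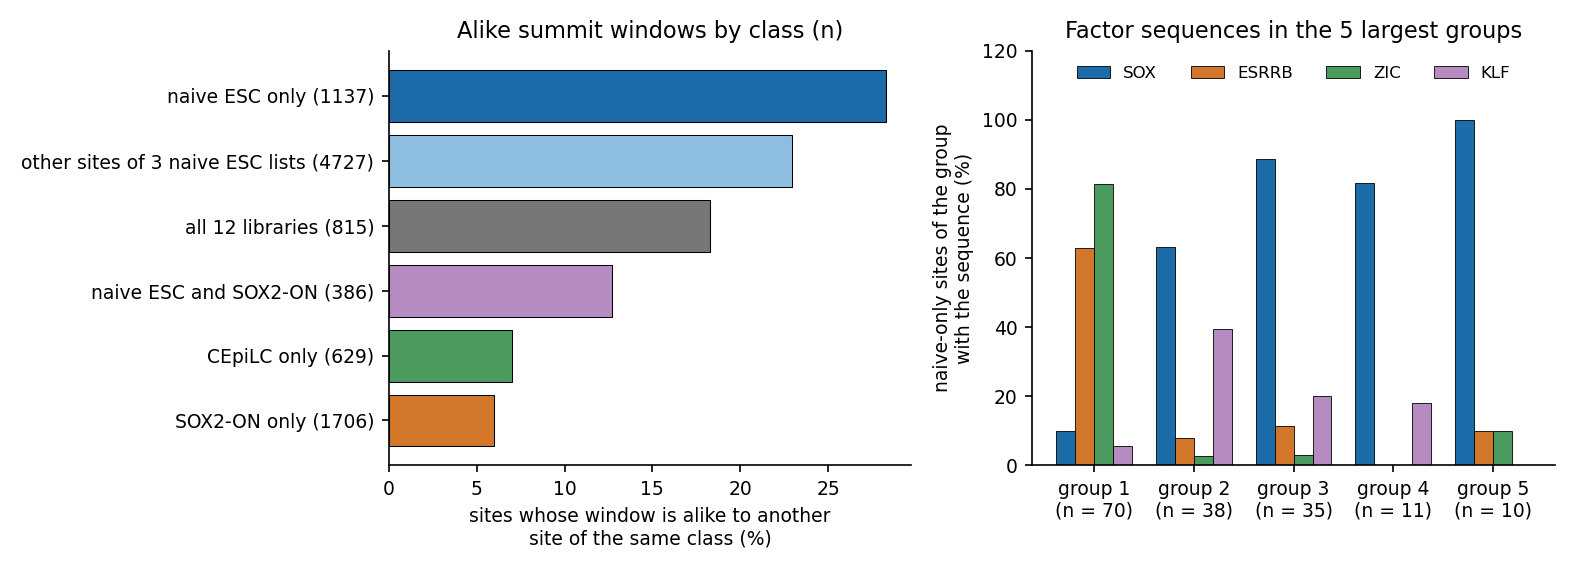
Left, share of sites (per cent) whose 201 bp window was alike to that of another site of the same class, with the number of sites in brackets. Right, share of the sites of the 5 largest groups of alike naive-only sites that hold each sequence. Naive-only sites have the longest bar on the left, 28.3%, and group 1 on the right is led by ZIC at 81.4% and ESRRB/NR5A2 at 62.9% where groups 2 to 5 are led by SOX.

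With the alike sites left out, the ESRRB/NR5A2 share stayed above that of the other 4727 sites of the 3 naive lists. The SOX and ZIC shares were below theirs. Among the 815 naive-only sites alike to no other, the ESRRB/NR5A2 sequence was found at 17.1%, SOX at 59.0%, ZIC at 14.6% and KLF at 12.02%. At the 4727 sites the shares were 8.06%, 64.8%, 18.2% and 8.78% in that order. At the 571 of these found in only 1 other library they were 15.2%, 59.5%, 17.5% and 13.8%. Among the 322 alike sites the shares were 27.6%, 50.6%, 25.5% and 15.5%. β-catenin was present in 3 of 3 full naive lists at 74.8% of alike and 70.2% of other naive-only sites, and TCF7L1 at 82.0% and 79.5%. At the 4727 sites the shares were 75.2% for β-catenin and 79.1% for TCF7L1.

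Naive-only sites lay mostly away from promoters, inside or near genes. Of the 1137, 586 were in introns, 472 between genes, 52 in exons and 27 (2.37%) within 1 kb of a protein-coding start. The last share was 8.98% for all other SOX2 sites, 25.9% for CEpiLC-only and 1.17% for SOX2-ON-only sites. The median distance to the nearest protein-coding start was 27183 bp, against 85019 bp for SOX2-ON-only and 9736 bp for CEpiLC-only sites. Their windows had 47.3% GC, between the 42.6% of SOX2-ON-only and the 54.5% of CEpiLC-only windows. Repeat bases made up 28.02% of the windows, against 21.7% at all other sites. Chromosome 11 held 110 of the sites (9.67%), against 5.94% of all other SOX2 sites and 8.399% of the other sites of the 3 naive lists.

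Genes of the naive pluripotency network were the nearest protein-coding gene of naive-only sites more often than genes at large. A naive-only site had its nearest start at 14 of 30 genes of that list (46.7%), while this held for 4.77% of all 21924 protein-coding genes. The 14 were Klf4, Tfcp2l1, Zfp42, Tbx3, Nr5a2, Nr0b1, Prdm14, Fgf4, Dppa2, Dppa5a, Sox2, Tet2, Jam2 and Pecam1, with 18 sites in all. Some lay far from the start: 458086 bp upstream for Nr5a2, and 85455 and 360373 bp upstream for Tbx3. Within 50 kb of the start the count was 11 of 30, against 7.59% of all genes. The other lists had lower shares of genes nearest to a site. The counts were 3 of 20 primed epiblast genes (Dnmt3a, Foxd3 and Cdh2) and 1 of 16 neural genes (Irx3). They were 2 of 21 WNT pathway genes (Ctnnb1 and Sp5) and 2 of 16 extraembryonic genes (Sox17 and Tfap2c). They were 0 of 22 caudal epiblast and primitive streak genes and 0 of 12 fibroblast genes. The primed epiblast, neural, WNT pathway and extraembryonic shares were still above the 4.77% of all genes. Whether other SOX2 sites of the naive lists lie as often by naive pluripotency genes was not tested. These counts are descriptions. Genes with wide intergenic surroundings collect more sites, and the nearest gene need not be the one regulated.

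Zfp42 (ENSMUSG00000051176.6), which encodes the naive marker REX1, had the strongest of the 18 sites, 13811 bp upstream of its start at chr8:43320455-43321657. The SOX2 fold there was 22.5, 33.4 and 33.0 in the 3 naive replicates, and β-catenin was present in 3 of 3 naive and 0 of 9 other equal-length lists. Weak SOX2 peaks were listed there in 2 SOX2-ON, 1 CEpiLC and 1 SOX2-OFF full list. The Tet2 site, in an intron of that 5-methylcytosine dioxygenase at chr3:133524435-133525175, had SOX2 folds of 10.6, 22.2 and 27.5. It had β-catenin and TCF7L1 in 3 of 3 naive lists of equal length, with 1 of the 9 other β-catenin lists also positive. The Tfcp2l1 site lay 18013 bp inside the gene with folds of 19.2, 13.4 and 17.5, and the site 3227 bp downstream of the Dppa5a start had 11.4, 19.5 and 18.6. These 4 windows each held a single KLF or SOX match in the 121 bases printed and no ESRRB/NR5A2 sequence in 201.

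Only 3 of the 18 sites lay within 1 kb of the start. Prdm14, a regulator that represses primed genes and DNA methylation, had sites 85 and 960 bp upstream of its start with median folds of 8.44 and 10.8, and Dppa2 had one 266 bp upstream with 13.0. Median folds at the other 15 ran from 6.70 to 33.0. Fgf4, a textbook target of OCT4 and SOX2, had a site 4270 bp downstream of its start with folds of 10.1, 9.47 and 9.92. Sox2 itself was nearest to 2 sites, 94963 and 114362 bp downstream of its start, with median folds of 13.0 and 11.4. Of the 18 sites, ESRRB/NR5A2 sequences were found at those of Nr0b1, Jam2 and Pecam1 and at the more distant Sox2 site. 

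The strongest naive-only sites without a SOX2 peak in any other full list were not next to genes of these lists. The first, at chr11:104944527-104945198 in an intron of Gm11639 (nearest protein-coding start Efcab3, 118683 bp away), had SOX2 folds of 29.8, 40.1 and 64.1. Both β-catenin and TCF7L1 peaks were present there in 3 of 3 naive and 0 of 9 other equal-length lists. The second, 7528 bp inside the kinase scaffold gene Ksr1, had folds of 31.8, 34.7 and 31.5 with the same β-catenin and TCF7L1 pattern. The third, 19608 bp upstream of Sgsm1, had folds of 25.4, 34.9 and 31.0, with β-catenin in 3 of 3 naive lists and TCF7L1 in 0 of 3 of equal length but 3 of 3 full ones. Of the 10 strongest such sites, 5 were alike to another naive-only site.

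Some sites had β-catenin and TCF7L1 only in naive ESCs in lists of equal length. The highest median SOX2 fold among them was in an intron of Thada, at chr17:84354355-84355531, with 43.8, 63.8 and 62.0. It was followed by sites upstream of Dhx40 (47.5, 47.9 and 39.1) and Pccb (20.8, 41.0 and 49.2). At the Thada site weak SOX2 peaks remained in 2 full SOX2-ON lists and 1 full CEpiLC list. Full lists of the other states also held β-catenin there in 3 libraries and TCF7L1 in 1. At the Dhx40 site they held β-catenin in 6 libraries, TCF7L1 in 5, and SOX2 in 2 SOX2-ON, 2 CEpiLC and 1 SOX2-OFF lists. TCF7L2 was present at the Dhx40 site in 3 other lists of equal length. At the Pccb site other full lists held β-catenin in 1 library and TCF7L1 in 1. The gene nearest to most naive-only sites was Tns3, with 4, followed by Ism2, Jarid2, Mbp, Pcdh9 and Vegfa with 3 each. Close neighbours were rare, since 58 of the 1137 sites had another within 10 kb.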

How the data were processed

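The data were 60 deposited ChIP–seq peak lists, 3 biological replicates of each of 5 immunoprecipitations in 4 cell states. Per the study's methods, cells were fixed with disuccinimidyl glutarate and formaldehyde, single-end reads were aligned to mm10 with BWA in an nf-core pipeline, and the authors called narrow peaks in each library with MACS2. The tool version, read depth and the input used for each library are not given in the sources used here, and 4 input samples were not used here. The deposited columns are a score that was not used here, the fold over input at the summit, and 2 significance columns, a −log10 p-value and a −log10 q-value, as the authors' caller wrote them.

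SOX2 lists were cut to the 20000 peaks of highest fold and merged where peaks shared 1 bp. Mediator lists were cut to the shortest list of that protein by deposited −log10 p-value. A site had a peak where at least 1 bp overlapped. The value of a library was the percent of sites with a peak, or the log2 odds of a peak at naive-only against all other SOX2 sites with 0.5 added to each count. Groups were compared by exact permutation of libraries, two-sided, with Benjamini-Hochberg adjustment over the 4 mediators, or over the 16 pairs, and a threshold of 0.05. p-values measure the spread between these libraries. Windows of 201 bp around the SOX2 summit of highest fold at each site were searched for 16 motifs by exact letters. Windows sharing at least 8 words of 12 bases, which could overlap, were called alike, with simple repeats left out. Nearest genes used the protein-coding starts of the reference annotation. The sites and gene lists were chosen with earlier results of these data known. Sites were named by rule: the 10 of highest median fold among those absent from the other full lists, those by naive pluripotency genes, and the 5 of highest fold with naive-only β-catenin and TCF7L1. Other sites named are listed genes with a site, genes with the most sites, and members of alike groups. The main tests did not pair libraries by replicate number. Correlations of same-numbered deviations ran from −0.0576 to 0.167, which cannot show that the libraries were unpaired. Scripts were tested on simulated data and ran in Python 3.11.15 with numpy 2.4.6, pandas 2.3.3 and scipy 1.17.1.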

Additional observations from a re-analysis of the deposited data

Results flagged for a closer look

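At naive-only SOX2 sites, the difference in β-catenin peaks between naive ESCs and CEpiLCs exceeded that between SOX2-ON and SOX2-OFF by 24.9 percentage points of sites, and the exact permutation test of that difference gave an adjusted p = 0.03. For TCF7L2 the same exact test gave 5.60 percentage points (adjusted p = 0.03). Both were picked out because the naive ESC minus CEpiLC contrast differed from the SOX2-ON minus SOX2-OFF contrast in a test of the difference itself. The first contrast is not an effect of SOX2 level alone. An exact p below 0.1 also needed the order of CEpiLC and SOX2-OFF libraries, each with such peaks at no more than 4 sites. The medium also differed between naive ESCs and CEpiLCs and did not differ between SOX2-ON and SOX2-OFF, so line, medium and state cannot be told apart. With a replicate block the adjusted p was 0.125 for both in the exact test. The sites were chosen for a SOX2 peak in naive ESCs and none among the strongest in SOX2-ON, SOX2-OFF or CEpiLCs. For any protein found with SOX2, that choice favours such a difference and a small one between SOX2-ON and SOX2-OFF.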

How the results depend on the processing

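Of 126 recomputed mediator values, 109 kept their direction and side of the threshold, 15 lost the call, 2 gained it and 0 changed direction. The number of naive-only sites was 3471 with all deposited peaks, 320 when absence from the full lists was required, and 1810 to 3431 with a replicate left out. Leaving out a replicate number, with sites and lists set anew, gave differences of 15.7 to 51.02 points for β-catenin, 9.13 to 55.2 for TCF7L1, 3.27 to 5.39 for TCF7L2 and 1.88 to 14.1 for LEF1, and only LEF1 lost its call. The log2 odds differences ran from 5.47 to 5.90, 4.75 to 7.17, 3.38 to 4.35 and 3.61 to 4.43 in that order. The comparison of the wild-type with the TetON contrast ran from 15.5 to 51.4 for β-catenin, 9.40 to 52.6 for TCF7L1, 3.31 to 5.44 for TCF7L2 and 1.65 to 12.7 for LEF1, and with a replicate left out its exact p cannot go below 0.0556. In the exact test, that comparison for β-catenin lost its call with mediator peaks limited to 100 bp around the summit (24.6 points, adjusted p = 0.06) and at sites absent from the full lists (24.2). For TCF7L2 the exact test lost the call with 100 bp (5.28, adjusted p = 0.0667), at sites absent from the full lists (5.52) and with all deposited peaks (9.53, adjusted p = 0.46). For TCF7L1 the exact test gained the call with all deposited peaks (78.4, adjusted p = 0.04) and without CEpiLC replicate 1 (65.8, adjusted p = 0.02), an alternative chosen after seeing the data in which the TCF7L1 share difference was 67.6 points. Pairs of conditions without overlap numbered 7 with all deposited peaks and 12 to 15 with a replicate left out. A replicate block left the values of the wild-type against TetON comparison at 24.9 (β-catenin) and 5.60 (TCF7L2) with an adjusted p = 0.125 for both in the exact test, and changed no other call. The numbers were not found to pair the libraries.

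Further alternatives chosen after the data were seen, leaving out LEF1 naive ESC replicate 1 (log2 odds difference 5.96) and leaving out sites alike to another, changed no call. The share with each motif moved with the window: for ESRRB/NR5A2 it was 9.23% within 50 bp and 29.6% within 250 bp of the summit.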
